A study of Mus musculus with 4 samples.

Results

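Cells of 1 sorted E16.5 mouse lung were divided by their own level of Acta2, the gene of alpha smooth muscle actin. Cells with an Epcam or Pecam1 UMI (unique molecular identifier, 1 counted molecule) were left out, as were cells with at least 1000 CPM (UMIs per 1000000 of the cell) of the heart muscle genes Actc1, Myl7, Nppa and Tnnt2 together. Of the 2879 cells kept, 790 had at least 4000 CPM of Acta2 and are called Acta2-high here, and 1062 had under 1000 CPM and are called Acta2-low. Together they are 1852 of the 3085 cells of the sort and of the 10564 cells of the series. The other 1027 kept cells lay between the thresholds. The cells were chosen by their measured Acta2 level, in 1 sample, so the levels of the other genes in the sort are given as a description with no test.

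The sorted lung carried αSMA-GFP, Tbx4-Cre and Rosa26-tdTomato on a C57BL/6 background, and cells were taken for green fluorescence and for the tdTomato that Tbx4-Cre leaves on in the descendants of Tbx4-expressing mesenchyme. The labels call them fibroblasts, and Col1a2, a fibrillar collagen chain, averaged 1253 CPM in high and 672 CPM in low cells. GFP, tdTomato and Cre are not among the listed genes, so the sort gate cannot be read from the data. The series also holds live cells of 3 wild-type E17.5 C57BL/6 lungs, named lung 1, lung 2 and lung 3 here. Each sample was 1 lung. All lungs were digested with trypsin and collagenase, and red cells were lysed. The labels do not say how the 3 lungs relate, so p-values measure only the spread between these samples.

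Alpha smooth muscle actin is built into the contractile filaments of airway and vessel muscle, and of the myofibroblasts that lay down elastin in the developing alveolus. Pericytes, which wrap capillaries, carry less of it, and matrix fibroblasts beside the alveolar epithelium little or none. Many contractile genes are switched on by the serum response factor SRF together with myocardin, a pair that binds CArG boxes in their promoters.

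The sort held 41038008 UMIs, with a median of 12007 per cell and no cell under 3000. High cells had a median of 11650 UMIs and low cells of 12218.5. To compare gene levels of high and low cells, equal numbers of both were drawn within 20 bins of UMI total. This gave 732 cells of each with medians of 11855.5 and 11862 UMIs. Levels are means of CPM over these cells, and differences are log2(mean CPM + 10) of high minus low cells. Unless matching is stated, all cells were used for Acta2 ranges, cells near or between the thresholds, and high cells split by Hhip and Ednrb. Intervals cover counting error only. The gate removed 206 cells, of which 71 had Acta2 above the high threshold and 89 below the low one, and 35 of the 71 were removed for heart muscle genes. A doublet caller marked 30 cells of the sort (0.972%), 10 of them high and 3 low, which were kept. Epithelial markers summed to 38.6 CPM in high and 38.3 CPM in low cells, endothelial markers to 169 and 163 CPM, and immune markers to 6.81 and 91.9 CPM (15.5 CPM in low cells without the cells named next). Among low cells, 8 had at least 100000 CPM of haemoglobin and 7 at least 1000 CPM of 5 leukocyte genes, against 0 and 0 among high cells. The sort shared 8, 7 and 13 cell barcodes with the 3 lungs.

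Acta2 ranged from 4009 to 40866 CPM in the high cells, with a median of 6889 CPM and of 83 UMIs. In the low cells it ranged from 0 to 999.5 CPM, with a median of 428 CPM and of 5 UMIs, and 48 of the 1062 had no Acta2 UMI. Values of the cells just inside and just outside each threshold are given for one gene. Tagln averaged 1744 CPM in the 95 cells at 4000 to 4500 CPM of Acta2 and 1233 CPM in the 88 cells at 3500 to 4000 CPM. It averaged 211 CPM in the 93 cells at 900 to 1000 CPM of Acta2 and 186 CPM in the 70 cells at 1000 to 1100 CPM.

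Of 3224 genes that averaged 50 CPM or more in one of the groups, 198 (6.14%) were at least 2-fold higher and 130 (4.03%) at least 2-fold lower in high cells. The median difference over these genes was 0.06. Since the contrast itself chose the cells, these shares stand beside the counts below as background only. The counts depend on the filter, because 337 genes were higher with a filter at 10 CPM.

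The contractile list had the most members on the high side. Of the 36 genes on a smooth muscle list, 28 passed the filter, 19 of these were at least 2-fold higher and 0 at least 2-fold lower, with a median difference of 1.61. Their summed level was 21693 CPM in high and 7326 CPM in low cells. Actg2, the gamma smooth muscle actin of the gut and airway wall, led all genes with 1077 CPM against 35.0 CPM, a difference of 4.59. The median high cell had 856 CPM of Actg2 and the highest 6613 CPM, whereas the median low cell had 0 and the highest 684 CPM. Tagln, which encodes the actin-binding protein transgelin, was at 2735 against 115 CPM (difference 4.45), from 24464 UMIs (95% Poisson interval 24158 to 24773) against 1027 (965 to 1092). The median high cell had 2390 CPM of Tagln, above the 2283 CPM of the highest low cell. Reads of near-identical actin genes (Acta2, Actg2, Actc1) may have been split by the authors' counting, so Actg2 is uncertain in that respect.

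Thick filament and regulatory genes followed. Cnn1, the actin-binding calponin of mature smooth muscle, averaged 193 against 5.54 CPM (difference 3.71). Myh11, the smooth muscle myosin heavy chain, averaged 315 against 21.4 CPM (3.37). Lmod1, a leiomodin that nucleates actin filaments, averaged 106 against 4.14 CPM (3.03). These are low-copy genes: the median high cell had 99.8 CPM of Cnn1, 247 CPM of Myh11 and 65.7 CPM of Lmod1, and the median low cell had none of the 3. The abundant light chain Myl9 differed less on the log scale, with 1902 against 342 CPM (2.44), and the light chain kinase Mylk averaged 1263 against 259 CPM (2.24). The tropomyosins graded from Tpm1 (1460 against 350 CPM, 2.03) over Tpm2 (1006 against 326 CPM, 1.59) to Tpm4 (974 against 812 CPM, 0.26).

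The contractile list was not uniform. Des, the intermediate filament desmin, was lower in high cells (135 against 228 CPM, -0.72), and so was Ppp1r14a (494 against 719 CPM, -0.53), an inhibitor of the myosin phosphatase. Cnn2 (0.83), Flna (0.80), Vcl (0.68) and Cald1 (0.60) were among the members that stayed under 2-fold. Of the 8 members under the filter, Kcnmb1 and Ppp1r12b averaged under 40 CPM in either group, and Pln, the phospholamban of heart and slow muscle, had no UMI in any of the matched cells.

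**Figure D1:**
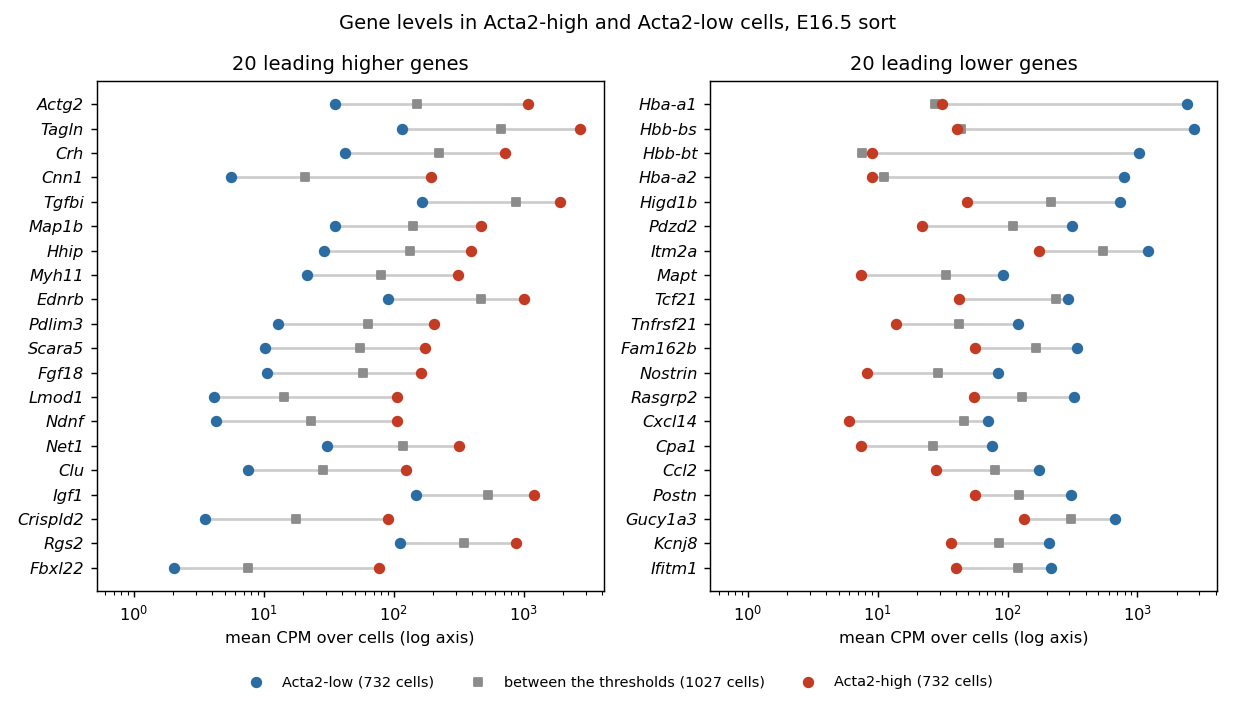
Mean CPM on a log axis of the 20 genes with the largest positive (left) and the 20 with the largest negative difference (right) in the E16.5 sort, for 732 low, 1027 between and 732 high cells. For every gene on the left the cells between the thresholds lie between the other groups, from Actg2 at 35.0, 151 and 1077 CPM downwards, while the 4 haemoglobin genes on the right are high in the low group alone.

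With every cell thinned to 5000 UMIs (2 high and 14 low cells were shallower and left out), a Tagln UMI was found in 99.0% of high and 30.0% of low cells (99.7% and 51.1% unthinned). Cells of the lungs with a Ptprc UMI, leukocytes that should lack the gene, had one in 4.72, 4.00 and 3.33% (medians of 8509, 9008 and 7857.5 UMIs before thinning). Myh11 was found in 68.9% of high cells (95% exact interval 65.5 to 72.1%) and 9.83% of low cells (8.09 to 11.8%), against 1.18, 1.60 and 1.39% of leukocytes. Unthinned shares of Myh11 were 89.5 and 18.9%. Low cells of the sort thus had Tagln and Myh11 UMIs more often than leukocytes of the E17.5 lungs did. Those leukocytes come from other libraries, so their shares do not give the background of the sort.

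Promoters of contractile genes were read for CArG boxes, since the SRF target sequence is what these genes are known to share. Only the gene's strand was searched, which covers both strands because the pattern is its own reverse complement. RefSeq's table (GRCm38.p6) gave the 250 bases before the start for 14 of the 19 contractile genes that were at least 2-fold higher, in 18 promoters. Tagln, Myh11 and Actg2 had no entry there and were not read. An exact box was in 5 of these 18 (27.8%), both promoters of Fhl2 among them, against 1.47% of all 32851 promoters. Allowing 1 G or C within its core gave 6 of 18 (33.3%) against 8.59% of all. The list's other 17 members had an exact box in 2 of 19 promoters (10.5%), so that the whole list had one in 7 of 37 (18.9%). Among the 20 leading higher genes, 13 matched, and 1 of 14 promoters had an exact box. The 18 promoters of the leading lower genes had 0. Below are the promoter of Acta2, which defined the groups, and those of Myl9 and Fhl2, printed 5′ to 3′ on the gene's strand with CArG boxes in capitals, the start of transcription following the last base. A match of letters is a description, not a bound site. Which genome build the deposited files rest on was not stated in the labels.
Acta2 promoter, chr19:34255374-34255623 (-): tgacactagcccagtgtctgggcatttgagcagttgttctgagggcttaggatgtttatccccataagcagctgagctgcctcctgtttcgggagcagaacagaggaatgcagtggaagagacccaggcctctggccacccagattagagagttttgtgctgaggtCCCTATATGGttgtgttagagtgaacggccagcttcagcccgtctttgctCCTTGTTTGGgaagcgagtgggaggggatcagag
Myl9 promoter, chr2:156775214-156775463 (+): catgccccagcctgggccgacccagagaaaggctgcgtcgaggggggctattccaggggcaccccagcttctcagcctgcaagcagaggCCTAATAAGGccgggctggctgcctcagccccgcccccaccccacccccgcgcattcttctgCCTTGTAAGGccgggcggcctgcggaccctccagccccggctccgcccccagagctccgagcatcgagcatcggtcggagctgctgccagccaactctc
Fhl2 promoter, chr1:43163962-43164211 (-): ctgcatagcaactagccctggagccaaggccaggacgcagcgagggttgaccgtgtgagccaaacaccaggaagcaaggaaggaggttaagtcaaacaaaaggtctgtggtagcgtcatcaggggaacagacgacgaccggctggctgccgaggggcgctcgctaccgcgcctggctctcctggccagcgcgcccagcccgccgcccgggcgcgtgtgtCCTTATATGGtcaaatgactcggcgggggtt

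The Acta2 promoter had boxes with 1 G or C in the core at -84 and -34 relative to the start, Myl9 an exact box at -161 and an inexact one at -99, and this second promoter of Fhl2 an exact box at -31. Myl9 was at 1902 against 342 CPM in the sort, and Fhl2, a LIM-domain cofactor, at 218 against 32.1 CPM (2.44).

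Transcription factors differed less than the contractile genes. Of 31 listed factors 13 passed the filter, 2 were at least 2-fold higher and 3 at least 2-fold lower, with a median difference of 0.01. Srf itself averaged 27.4 against 19.3 CPM (0.35), and its cofactor Mkl1 9.60 against 7.52 CPM (0.16). Myocd, which encodes myocardin, averaged 39.2 CPM in high and 2.91 CPM in low cells (1.93) and lay under the filter. In thinned cells a Myocd UMI was found in 17.01% of high cells (14.4 to 19.8%) and 1.24% of low cells (0.662 to 2.11%), with 0.00, 0.40 and 0.00% of leukocytes, and 31.3 and 2.82% unthinned. The other higher factors were Tbx3 (149 against 52.2 CPM, 1.36) and Mef2c (274 against 124 CPM, 1.08), a partner of muscle gene regulation. The lower ones were Tcf21, the factor of lipofibroblast and matrix lineages (42.1 against 292 CPM, -2.54), Meox2 (6.77 against 64.4 CPM, -2.15) and Ebf1 (148 against 584 CPM, -1.91). Factors of lung mesenchyme differed by less than 2-fold: Foxf1 averaged 359 against 188 CPM (0.90), Tbx5 200.04 against 132 CPM (0.56), Tbx4 48.2 against 41.1 CPM (0.19) and Tbx2 186 against 215 CPM (-0.20).

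Over ranges of Acta2 the levels of many leading genes changed in steps. The 2879 kept cells were cut into 6 ranges of Acta2, with 603 cells under 500 CPM and 295 at 8000 CPM or more. Of the 20 leading higher genes 17 were higher in each successive range, and of the 20 leading lower genes 12 were lower in each. Over all genes past 2-fold the counts were 129 of 198 and 82 of 130. All these genes were chosen by the contrast between the lowest and the top ranges, so a rise or fall is partly built in. The share over all genes past the filter was not counted. Tagln averaged 66.5, 171, 374, 1002, 2154 and 3722 CPM over the 6 ranges. Cnn1 stood at 5.56, 7.21, 11.2 and 31.2 CPM in the first 4 ranges and then at 107 and 353 CPM. By contrast, Ednrb, the endothelin receptor B, averaged 45.9, 134, 295, 662, 1024 and 1000 CPM, so its level was about the same in the 2 top ranges. Tgfbi (1917 and 1910 CPM in those ranges) was alike in this. Pdgfra, the receptor of alveolar myofibroblast precursors, was highest at 4000 to 8000 CPM of Acta2, with 230.5 CPM, and stood at 149 CPM above. Des averaged 244 CPM in the lowest range, 102 CPM at 2000 to 4000 CPM of Acta2 and 182 CPM in the highest range.

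**Figure D2:**
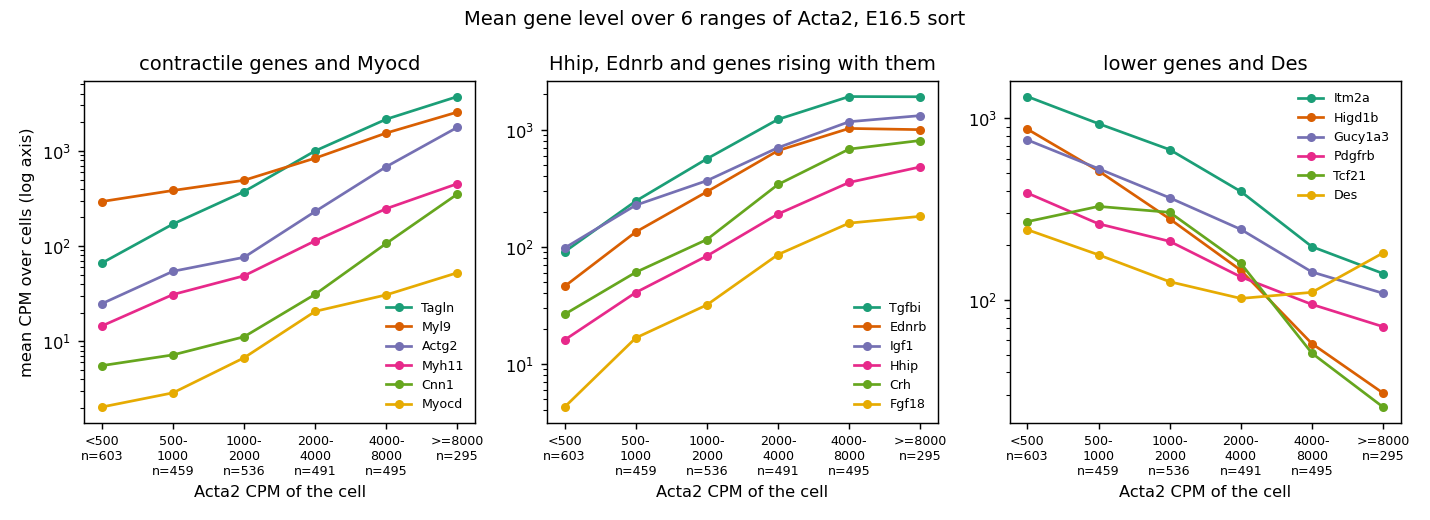
Mean CPM (log axis) of named genes in 6 ranges of the cell's own Acta2 level, with the number of cells under each range. Contractile genes and Myocd are higher in every successive range up to Tagln at 3722 CPM, Ednrb and Tgfbi level off above 4000 CPM of Acta2, and Des is lowest, at 102 CPM, in the range from 2000 to 4000 CPM.

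Myofibroblast genes were the other large block on the high side. All 12 members of a 14-gene myofibroblast list that passed the filter were at least 2-fold higher, with a median difference of 3.04 and a summed level of 6195 against 698 CPM. The list was drawn up with earlier results of these data known, so its direction is no independent evidence. Tgfbi, a secreted matrix protein, averaged 1903 against 165 CPM (3.45). Hhip, the decoy receptor that binds hedgehog ligands, averaged 394 against 28.9 CPM (3.38), and Ednrb 1004 against 90.7 CPM (3.33). Igf1, a growth factor, averaged 1192 against 148 CPM (2.93), and the median high cell had 1235 CPM while the median low cell had none. Fgf18, a growth factor of alveolar and cartilage development, averaged 163 against 10.6 CPM (3.07). Crh, which encodes the stress hormone corticotropin-releasing hormone, averaged 720 against 42.3 CPM (3.80) but was unevenly spread: the median high cell had 182 CPM.

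Signalling lists differed in their counts. Of 9 Wnt genes past the filter, 6 were at least 2-fold higher and 0 lower, among them the secreted inhibitors Sfrp2 (172 against 20.4 CPM, 2.58) and Wif1 (123 against 27.8 CPM, 1.81), the R-spondin receptor Lgr6 (78.7 against 5.30 CPM, 2.54) and the feedback inhibitor Nkd1 (232 against 50.7 CPM, 2.00). Of 14 genes of TGF-beta and BMP signalling 5 were higher and 0 lower, among them the BMP antagonist Nog (50.2 against 6.84 CPM, 1.84). In the hedgehog pathway 4 genes passed the filter and Hhip alone exceeded 2-fold. The receptor Ptch1, a target of the pathway as Hhip is, averaged 92.7 against 48.4 CPM (0.81), the transducer Smo 63.9 against 55.5 CPM (0.17) and the co-receptor Gas1 40.0 against 69.8 CPM (-0.67). Of the FGF and PDGF genes, Pdgfra was higher (199 against 63.8 CPM, 1.50) and Pdgfrb, the pericyte receptor, lower (87.2 against 331 CPM, -1.81).

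Of 15 elastic fibre genes past the filter 4 were at least 2-fold higher and 0 lower, with a median of 0.84 and a lowest value of -0.17. Against the pericyte-marker low cells described further on the list had 10 higher and 0 lower, and against the matrix-marker ones 1 and 1. Eln, the gene of tropoelastin, averaged 3401 against 1055 CPM (1.68) and varied widely from cell to cell: the median was 1998 CPM in high and 141 CPM in low cells. Lox, the enzyme that cross-links elastin and collagen, averaged 424 against 141 CPM (1.52). Of 10 collagens, Col27a1 alone was at least 2-fold higher (113 against 32.8 CPM, 1.53) and Col13a1, a matrix fibroblast gene, at least 2-fold lower (15.5 against 53.6 CPM, -1.32). Of 7 basement membrane genes none passed 2-fold.

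On the low side the 4 largest differences were haemoglobin genes, and they came from a handful of cells. Hbb-bs averaged 40.9 CPM in high and 2747 CPM in low cells (-5.76), while the median was 0 in both groups. Of the 732 matched low cells 6 had at least 100000 CPM of haemoglobin. Without these and the 4 matched cells with leukocyte genes, Hbb-bs averaged 42.2 against 43.8 CPM (-0.04), and Hba-a1, Hba-a2 and Hbb-bt differed by 0.20, 0.06 and 0.07. Leaving these cells out was chosen after seeing the data. Hba-a1 and Hba-a2, like Hbb-bs and Hbb-bt, are near-identical copies between which reads may be split. The other leading lower genes hardly depended on these cells, as Itm2a shows with -2.73 and -2.65.

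Of the other 16 leading lower genes 5 were on a pericyte list. Of 15 members of a pericyte list past the filter 13 were at least 2-fold lower in high cells, 1 was higher, and the summed level was 1893 against 7270 CPM. Higd1b, a mitochondrial protein gene that marks lung pericytes, averaged 49.0 against 731 CPM (-3.65), with a median of 0 in high and 434 CPM in low cells. Itm2a averaged 175 against 1216 CPM (-2.73) and Postn, the matrix protein periostin, 56.4 against 308 CPM (-2.26). Gucy1a3, a subunit of the nitric oxide receptor, averaged 133 against 667 CPM (-2.24). The potassium channel pair of pericytes was lower too, Kcnj8 at 36.8 against 209 CPM (-2.23) and its partner Abcc9 at 13.0 against 71.7 CPM (-1.83). Rgs5, a regulator of G-protein signalling often used as a pericyte marker, went the other way with 231 against 88.3 CPM (1.29). Thinned cells had a Higd1b UMI in 13.2% of the high and 61.5% of the low group (28.9 and 69.6% unthinned), against 5.60, 2.80 and 2.50% of leukocytes.

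Matrix fibroblast genes were lower with fewer molecules. Of 9 past the filter 7 were at least 2-fold lower and 0 higher, with a summed level of 309 against 1066 CPM. Besides Tcf21 and Meox2 these were led by Npnt, the matrix protein nephronectin (8.84 against 71.2 CPM, -2.11), and Figf, the lymphatic growth factor VEGF-D (13.2 against 74.9 CPM, -1.87). Cxcl14, a chemokine, averaged 5.98 against 71.1 CPM (-2.34). The growth-associated imprinted genes divided: Dlk1 averaged 818 against 2259 CPM (-1.45) and Mest 267 against 1116 CPM (-2.02), but the non-coding H19 1896 against 653 CPM (1.52).

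Proliferation genes were lower in high cells by less than 2-fold in most cases. Of 12 S phase genes past the filter 1 was at least 2-fold lower, with a median of -0.79, and of 12 genes of G2 and M phase also 1, with a median of -0.68. Top2a, which untangles replicated DNA, averaged 47.2 against 114 CPM (-1.12). In thinned cells a Top2a UMI was found in 10.5% of high cells (8.48 to 12.9%) and 28.2% of low cells (25.5 to 31.1%), or 16.46 and 36.3% unthinned. Leukocytes, which divide as well and so give no background here, had one in 26.0, 26.4 and 26.4%. Of 15 immediate early genes past the filter 1 was at least 2-fold higher and 0 lower, with a median of 0.33 and a lowest value of -0.22. It was Fos, which averaged 868 against 426 CPM (1.01), and Jun averaged 716 against 439 CPM (0.69).

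The low group was not uniform in its markers. When each low cell's summed pericyte markers were set against its summed matrix fibroblast markers, 747 of the 1062 (70.3%) had at least 2 times as much of the former and 199 (18.7%) at least 2 times as much of the latter, leaving 116 in neither. These are ranges of a score and not cell types, with 53 cells at ratios from 1 to 2, 61 at ratios from 0.5 to 1 and 2 at 0 CPM on both lists, and the genes of both lists are not results there. The pericyte-marker cells held 7 of the 8 haemoglobin-rich cells and the matrix-marker cells 0. Median depths were 13327 and 9745 UMIs, so each kind was matched in depth to high cells (611 and 199 cells). Against the pericyte-marker cells 262 of 3229 genes (8.11%) were at least 2-fold higher and 136 (4.21%) lower in high cells. Against the matrix-marker cells 218 of 3322 (6.56%) were higher and 145 (4.36%) lower.

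The 20 leading higher genes were at least 2-fold higher than in either kind. The leading genes of both sides were chosen against all low cells, of which both kinds are parts. Counts of leading genes against either kind are therefore partly built in. Tagln stood at 109 CPM in pericyte-marker and 75.9 CPM in matrix-marker cells, and Myh11 at 16.49 and 21.7 CPM. Of the 20 leading lower genes 10 were haemoglobins or on a list that made the split and are not counted here. Of the other 10, 9 were at least 2-fold lower than in pericyte-marker cells, whereas 2 (Cxcl14 and Ifitm1) were lower and 0 higher than in matrix-marker cells. Pdzd2, a PDZ-domain protein gene on neither list, averaged 454 CPM in pericyte-marker and 5.09 CPM in matrix-marker cells, against 21.9 CPM in the high group. Cxcl14 showed the opposite with 4.64 and 284 CPM. Other genes split the low group the other way: Eln averaged 420.4 CPM in pericyte-marker and 2378 CPM in matrix-marker cells. Lox averaged 31.3 and 446 CPM, so that it differed from the high cells by 3.34 in the first case and 0.05 in the second. Fhl1, a LIM protein on the contractile list, averaged 134 and 826 CPM (differences of 2.70 and 0.22). Des was at 289.8 and 33.9 CPM (differences of -1.08 and 1.99).

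Of 3014 genes outside the 2 marker lists measured against both kinds, 131 were at least 2-fold higher and 22 lower in high cells than in each. Beside these, 1 gene of the marker lists was higher and 1 lower than in each kind. Some of the 22 lower ones are named here, chosen after their values were seen, while others with similar differences, such as Prex2 and S100a6, are not described. Cdo1, cysteine dioxygenase, averaged 34.1 CPM in high cells against 188 CPM in pericyte-marker and 184 CPM in matrix-marker cells. Hic1, a transcription repressor of quiescent mesenchymal cells, averaged 20.1 against 109 and 102 CPM, and Snai2, the repressor Slug, 25.6 against 106 and 146 CPM. Ptn, the growth factor pleiotrophin, averaged 28.3 CPM against 118 and 229.5 CPM.

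**Figure D3:**
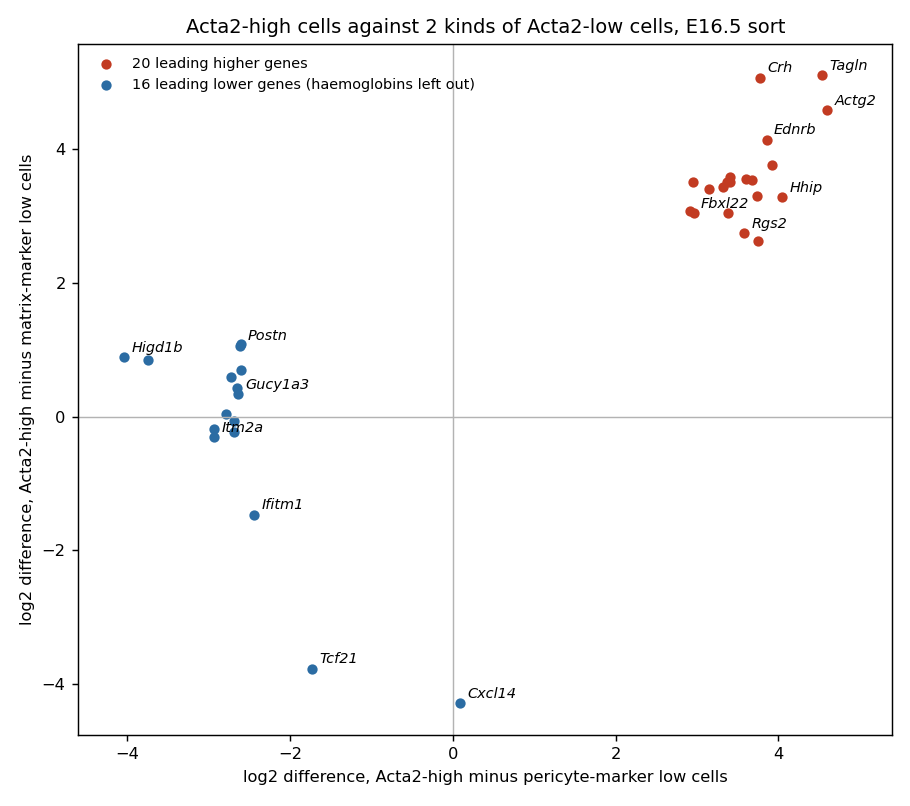
Difference on the log2(mean CPM + 10) scale between high cells and pericyte-marker low cells (x axis, 611 cells of each) and between high cells and matrix-marker low cells (y axis, 199 of each). The 20 leading higher genes lie at the upper right, above 2 on both axes, while most of the 16 leading lower genes shown, 6 of which are on the marker lists that made the split, lie left of 0 and near 0 on the y axis, with Ifitm1 below 0 (-1.47) and Tcf21 and Cxcl14 at the bottom (-3.77 and -4.28).

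The high group was divided as well, by Hhip and Ednrb. Of 790 high cells 634 (80.3%) had 2 or more UMIs of these genes together, 113 (14.3%) had none and 43 had 1. Median depths were 11129.5 and 13672 UMIs in the first 2 sets, so the cells without these UMIs were the deeper ones. Acta2 averaged 7667 CPM with and 7372 CPM without them. Of 28 contractile genes past the filter 7 were at least 2-fold higher in cells with Hhip or Ednrb, 0 were lower and 21 differed by less, and with cells matched in depth the counts were again 7 and 0 of 28. Among the 21 were Tagln, which averaged 2628 and 2997 CPM, Myl9 1946 and 1795 CPM, Tpm1 1378 and 1759 CPM and Actg2 1130 and 849 CPM. The 7 higher ones were Pdlim3, a PDZ and LIM protein of the actin cytoskeleton (252 and 12.8 CPM), Synpo2 (92.1 and 5.81 CPM), Nexn (690.1 and 148 CPM), Fhl2 (258 and 55.1 CPM), Mylk (1523 and 387 CPM), Myh11 (373 and 117 CPM) and Cnn1 (224 and 92.2 CPM).

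Of 3384 genes, 257 (7.59%) were at least 2-fold higher and 199 (5.88%) lower in cells with Hhip and Ednrb. Genes of this split outside the lists are named after their values were seen. Tgfbi averaged 2377 CPM with and 29.7 CPM without, Igf1 1516 and 35.0 CPM, Crh 904 and 13.8 CPM and Rgs2, a brake on contractile receptor signalling, 1106 and 57.7 CPM. Fgf18 averaged 209 CPM with them and had 0 UMIs in the 113 cells without, as had Ndnf, a secreted neurotrophic factor, at 136 CPM. In the other direction, of 8 genes of a Notch list past the filter 7 were at least 2-fold higher in cells without Hhip and Ednrb and 0 in cells with them, and of 14 pericyte genes 12 and 0. Heyl, a Notch target of vascular smooth muscle, averaged 417 against 28.9 CPM, and Nrarp, another Notch target, averaged 239 against 24.9 CPM in the depth-matched cells described next. Ebf1 averaged 591 against 35.5 CPM and Notch3, the receptor of vessel wall cells, 191 against 27.8 CPM. Eln was higher in them too (5291 against 3033 CPM), whereas Lox was lower (57.7 against 519 CPM). With 113 cells of each set matched in depth, an alternative chosen after seeing the data, Tgfbi still differed by 5.79, Igf1 by 4.78 and Heyl by -3.08.

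**Figure D4:**
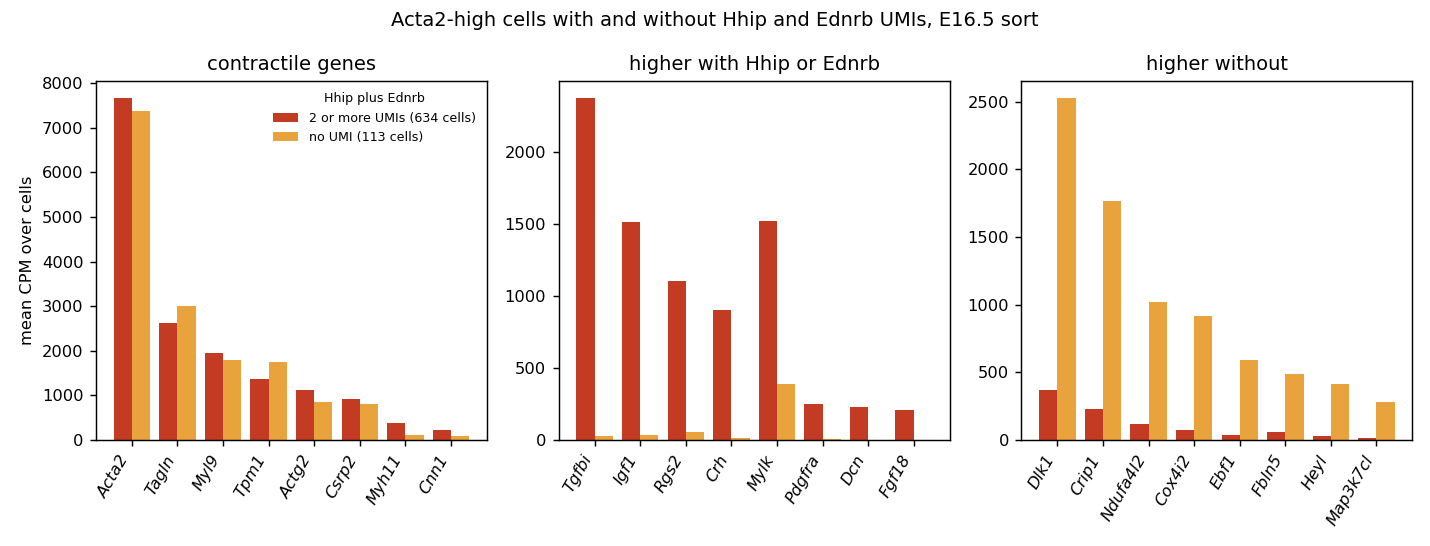
Mean CPM (bars from 0) in Acta2-high cells with 2 or more Hhip plus Ednrb UMIs (634 cells) and with none (113 cells). Tagln (2628 and 2997 CPM), Myl9, Tpm1 and Actg2 are at similar heights in both while Myh11 and Cnn1 are higher with Hhip or Ednrb, Tgfbi and Igf1 are near 0 without Hhip and Ednrb, and Dlk1 to Map3k7cl are higher there.

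Over the 732 depth-matched cells of each group, Heyl averaged 104 CPM in high and 132 CPM in low cells (-0.31). Over the Acta2 ranges the share of thinned cells with 2 or more Hhip plus Ednrb UMIs went from 3.72% (2.34 to 5.57%) under 500 CPM of Acta2 to 54.8% (50.3 to 59.3%) at 2000 to 4000 CPM and 77.3% (73.3 to 80.9%) at 4000 to 8000 CPM. At 8000 CPM or more it was 75.3% (69.9 to 80.1%), within the interval of the range before. The sort gate and the removal of Epcam and Pecam1 cells can set such shares.

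The same Acta2 thresholds were applied to the 3 E17.5 lungs, which the choice of the sorted cells did not use. Cells without Epcam, Pecam1 or Ptprc UMIs, under the heart muscle limit and with at least 1000 CPM of Col1a1, Col1a2 and Col3a1 together gave 597, 434 and 499 cells. Of these 31, 26 and 37 were Acta2-high and 423, 287 and 312 Acta2-low, and as many low as high cells were drawn at matched depth in each lung. Mean CPM per lung and group was tested with limma, with the lung as a block, over 8100 genes. At a Benjamini-Hochberg adjusted p under 0.05, 338 genes (4.17%) were higher and 299 (3.69%) lower in high cells. Residual degrees of freedom were 2 beside a prior of 15.8, so the p-values lean on the spread pooled over genes. The counts moved with the settings, to 696 and 500 without depth matching and 831 and 637 without the collagen threshold. With no filter they were 0 and 0 by limma (878 and 649 at an unadjusted p under 0.05). edgeR on recovered UMIs, run with its own filter, gave 246 and 307. Levels are means ± SD over the lungs (n = 3), and differences carry their standard error.

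Of the 20 leading higher genes of the sort, 19 were higher in the lungs and all 20 had the same sign in each of the 3 lungs. Tagln averaged 2966 ± 493 CPM in high and 125 ± 24.0 CPM in low cells, a difference of 4.47 ± 0.14 (adjusted p = 2.8e-13), with 4.16, 4.58 and 4.66 in the 3 lungs. Myh11 averaged 305 ± 17.1 against 22.3 ± 19.4 CPM (3.56 ± 0.36, adjusted p = 2.1e-06), and Myl9 1565 ± 52.5 against 144 ± 47.0 CPM (3.41 ± 0.17, adjusted p = 2.9e-10). Tgfbi averaged 2479 ± 747 against 330 ± 191 CPM (3.04 ± 0.16, adjusted p = 5.4e-10). Hhip was higher in 3 of 3 lungs with 572 ± 113 against 159 ± 11.3 CPM (1.77 ± 0.17, adjusted p = 1.9e-06). Rgs2 missed the threshold with 0.59 ± 0.18 (adjusted p = 0.051), and Clu, a secreted chaperone, passed with 1.14 ± 0.31 (adjusted p = 0.026) but lost the call without lung 1 (adjusted p = 0.14) or lung 2 (0.065). Of all 198 genes past 2-fold on the high side 197 were tested, 129 were called higher (129 of the 338 called) and 5 lower.

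The lower side carried over in part. Of the 20 leading lower genes 19 were tested, 8 were called lower and 0 higher. Tcf21 averaged 59.6 ± 24.9 CPM in high and 1149 ± 145 CPM in low cells (-4.11 ± 0.19, adjusted p = 8.9e-11), a larger difference than in the sort. Cxcl14 (-3.18 ± 0.35, adjusted p = 6.8e-06), Mapt, the microtubule protein tau (-2.18 ± 0.39, adjusted p = 0.0011), and Pdzd2 (-1.83 ± 0.38, adjusted p = 0.004) were lower in 3 of 3 lungs, Pdzd2 not past the threshold without lung 3 (adjusted p = 0.084). Higd1b was called lower (-2.00 ± 0.52, adjusted p = 0.022) though the lungs read -2.74, 0.66 and -3.92, and it lost the call by edgeR (adjusted p = 0.31). Itm2a was similar with -3.71, 0.22 and -2.01 (adjusted p = 0.01), and 0.063 by edgeR. Lung 2 had the opposite sign to the other lungs in both. The pericyte list summed to 1307, 4956 and 1991 CPM in high and to 2469, 2488 and 1746 CPM in low cells of lungs 1 to 3, and its part in these values was not tested. Without the collagen threshold in the gate Higd1b, Itm2a and Pdzd2 turned to 1.72, 1.06 and 0.97 (limma adjusted p = 0.11, 0.13 and 0.13), and Higd1b stood at 0.02 with a high threshold of 2000 CPM (adjusted p = 0.97). Postn (0.53 ± 0.26, adjusted p = 0.30), Gucy1a3 (-0.32 ± 0.30, adjusted p = 0.64) and Pdgfrb (-0.05 ± 0.34, adjusted p = 0.96) did not pass. Of the 130 genes past 2-fold on the low side 128 were tested, 53 were called lower (53 of the 299 called) and 1 higher.

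**Figure D5:**
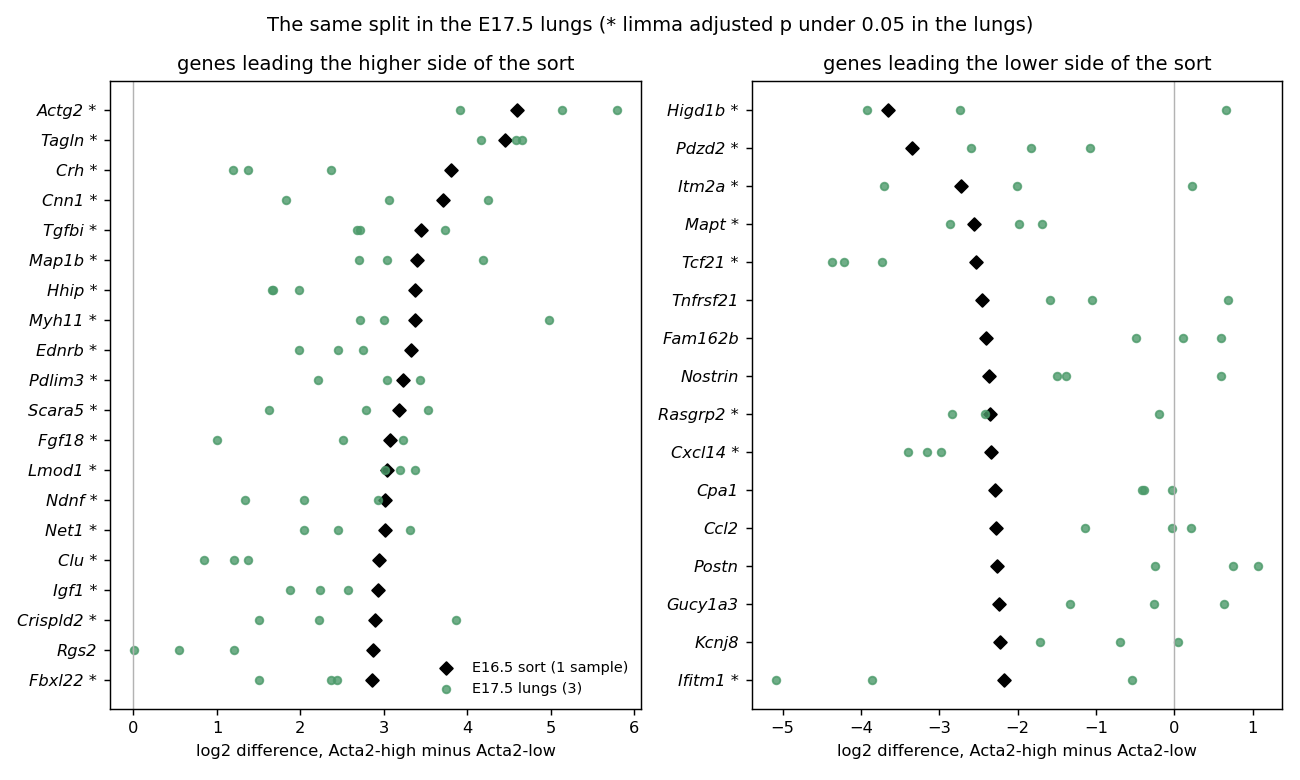
Difference in log2(mean CPM + 10) between Acta2-high and Acta2-low cells for the 20 leading higher and 16 leading lower genes (haemoglobins left out), as a black diamond for the E16.5 sort (1 sample) and as green points for the 3 E17.5 lungs, with an asterisk for a limma adjusted p under 0.05. On the left all lung points are above 0, from Rgs2 at 0.01 to Actg2 at 5.79, while on the right lung points lie on both sides of 0 for Higd1b, Itm2a, Gucy1a3, Postn and several others.

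By list, the contractile genes had 32 tested members in the lungs, 22 called higher and 2 lower. Des was called higher (222 ± 86.9 against 92.9 ± 15.6 CPM, 1.11 ± 0.27, adjusted p = 0.014), unlike its value in the sort, but missed the threshold without lung 2 (adjusted p = 0.056) or lung 3 (0.17). The genes called lower were Ppp1r14a (-0.95 ± 0.13, adjusted p = 9.1e-05) and Fhl1 (952 ± 129 against 1723 ± 224 CPM, -0.85 ± 0.10, adjusted p = 1.4e-05), of which Fhl1 was higher in the sort. Without the collagen threshold they stood at 0.06 and 0.05. The myofibroblast list had 13 of 14 called higher and 1 lower. All 15 tested matrix fibroblast genes were called lower, with a median of -2.85 and summed levels of 507, 414 and 370 CPM in high against 4366, 4853 and 4949 CPM in low cells of the 3 lungs. Of 16 tested pericyte genes 2 were called higher and 2 lower, with Rgs5 among the higher (2.11 ± 0.31, adjusted p = 0.00014). Matrix fibroblast genes thus summed higher in the low cells of the lungs than in those of the sort (1066 CPM), and pericyte genes lower (1746 to 2488 CPM against 7270 CPM). The gates differ, with a reporter sort at E16.5 and a collagen threshold at E17.5, and so do age and genotype, which cannot be told apart.

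Of 25 tested transcription factors 4 were called higher and 4 lower, and of 17 collagens 2 and 9. Col1a1, Col1a2 and Col3a1, which chose the lung cells, were not left out of the tests. The collagen counts are therefore not independent of the gate. Mef2c (2.17 ± 0.27, adjusted p = 2.5e-05), Foxf1, the forkhead factor of lung mesenchyme (1.64 ± 0.19, adjusted p = 1.1e-05), Tbx3 (1.45 ± 0.32, adjusted p = 0.007) and Heyl (2.27 ± 0.44, adjusted p = 0.0022) were called higher, and Tbx3 lost the call without lung 3 (adjusted p = 0.090). Meox2 (-3.28 ± 0.33, adjusted p = 2.2e-06) and Maf (-3.56 ± 0.30, adjusted p = 2.7e-07) were called lower. Eln averaged 12027 ± 1417 against 4900 ± 1150 CPM (1.32 ± 0.11, adjusted p = 1.5e-07), but Lox, higher in the sort, was at 479 ± 78.7 against 523 ± 53.6 CPM (-0.13 ± 0.16, adjusted p = 0.74). Of 20 immediate early genes 0 were called higher and 11 lower (0 and 15 at an unadjusted p under 0.05 by limma, 0 and 13 of 19 by edgeR), Jun among them (-0.72 ± 0.07, adjusted p = 2.5e-06). Of 16 S phase and 14 G2 and M phase genes 0 were called by limma, with 1 and 2 at an unadjusted p under 0.05, and edgeR called 0 of the 3 and 6 it tested. Epithelial markers summed to between 1749 and 2482 CPM in both groups of the lungs, far above the sort, and their part in these values was not tested.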

How the data were processed

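Single-cell RNA-seq of 1 sorted E16.5 lung (3085 cells) and 3 E17.5 lungs (2682, 2140 and 2657 cells) was analysed. The authors deposited 1 table per sample of normalized signal, in which each cell's values sum to the sample's median UMI total. Cell Ranger 1.3.1 and Seurat 3.0.0 are named in the submitters' processing notes, with no role given, while build, aligner and cell filters were not given in the sources. The labels' protocols speak of lysis plates, while the cell names are droplet-style barcodes. Whole UMIs were recovered from the deposited signal (100% of values whole within 0.01), with medians of 12007, 7979, 8493.5 and 7201 UMIs per cell, and CPM was computed from them.

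High and low cells were drawn in equal numbers within 20 bins of UMI total (seed 1). Differences are log2(mean CPM + 10), which understates the change of low genes, with genes under 50 CPM (sort) or 10 CPM (lungs) left out. In the lungs limma 3.58.1 (R 4.3.3) was fitted on the log2 values, with trend, the lung as a block and Benjamini-Hochberg adjustment over all genes tested. The block was used because high and low cells come from the same lung; deviations of the 2 groups of a lung correlated by 0.018, 0.089 and 0.105 over 2931 genes. edgeR 4.0.16 on UMI sums was an alternative and called 246 genes higher and 307 lower. In data simulated for this lung comparison over 7822 genes, limma found 25% of 2-fold and 77% of 4-fold changes, with 2 false among 104 calls. The simulation assumed the same dispersion for every gene and no differences between lungs or mixtures of cells. Only genes above a set level were changed. It therefore does not give the error rate of the calls in the real lungs. Doublets were called with scrublet in scanpy 1.11.5 and figures drawn with matplotlib 3.10.9, on scipy 1.17.1, pandas 2.3.3 and numpy 2.4.6 (Python 3.11.15).

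The genes named are the 20 with the largest difference in each direction in the sort (at least 50 CPM and 100 UMIs in the higher group, without Acta2 and the gate's genes), up to 4 per gene list, and all contractile and transcription factor list members. Others are said to be chosen after their values were seen. Some genes that the rule names are not reported here. The cells and the lists were chosen with earlier results of these data known.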

Additional observations from a re-analysis of the deposited data

Results flagged for a closer look

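For 3 named genes the difference in the sort and that in every lung had opposite signs. Fhl1, a LIM protein of muscle, differed by 1.60 in the sort and by -0.69, -1.03 and -0.83 in the 3 lungs (limma adjusted p = 1.4e-05 in the lungs). The lung gate had a collagen threshold that the sort's gate did not have. Without that threshold the lung difference of Fhl1 turned sign, as given below. Fos, an immediate early gene, differed by 1.01 in the sort and by -0.28, -0.38 and -0.91 in the lungs (limma adjusted p = 0.00087). Pde5a, the phosphodiesterase that breaks down cyclic GMP, differed by -1.38 in the sort and by 0.46, 0.10 and 0.08 in the lungs (limma adjusted p = 0.77). The difference between sort and lungs was not tested, since the sort is 1 sample.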

How the results depend on the processing

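Each setting listed for trial was run, and 2 were added after seeing the data. In the sort the 198 higher and 130 lower genes became 108 and 59 with a pseudocount of 50 CPM, and the higher ones 337 with a filter at 10 CPM or none. Median-of-ratios scaling gave 172 higher and 145 lower, 54.3% higher against 60.4%. Of 2198 values of 157 genes in the sort, 1816 stayed within the set limit, 379 moved and 3 of genes past 2-fold turned sign, namely Hba-a1 (0.20), Hbb-bt (0.072) and Hba-a2 (0.060) without red cells and leukocytes. A further 10 genes, all under 2-fold, changed sign under some setting (Cdk1, Foxf2, Klf4, Mef2a, Pgm5, Prrx1, Ramp2, Tbx4, Tead1 and Zeb1).

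In the lungs the 338 higher and 299 lower genes became 696 and 500 without depth matching, 831 and 637 without the collagen threshold, 827 and 532 with a high threshold of 2000 CPM, and 0 and 0 with no filter (878 and 649 at an unadjusted p under 0.05 by limma). The cause of these shifts was not tested. Leaving out 1 lung gave 265 to 300 higher and 230 to 287 lower genes. Without the replicate block that pairs the groups of a lung, 314 were higher and 276 lower, and Higd1b (adjusted p = 0.076), Dcn, Col1a2 and Notch3 lost their calls. Of 949 values of 80 called genes, 817 kept sign and call, 125 lost the call (80 of them with no filter) and 7 turned sign. Without the collagen threshold these were Higd1b (1.72), Pdzd2 (0.97), Itm2a (1.06), Ppp1r14a (0.061), Fhl1 (0.054) and Col6a1 (0.31), and Higd1b (0.018) with the 2000 CPM threshold. Depth limits rare genes: 26 to 37 high cells per lung carried 202125 to 251920 UMIs.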
